A study of Saccharomyces cerevisiae with 8 samples.

Results

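RPR1, SNR52, SCR1 and SNR6 are the budding yeast genes, apart from tRNA and 5S rRNA genes, for which transcription by RNA polymerase III is best established. Peaks of the transcription factor Gcr1 were assigned to one of these 4 genes where the peak interval lay within 500 bp of the annotated gene. This rule took 12 of the 1064 peaks of the series, 3 from each of 4 peak lists. RPR1 and SNR52 were in all 4 lists, SCR1 in both lists of Gcr1(U) and SNR6 in both lists of Gcr1(S). In each form every peak listed at 12 h overlapped one at 6 h, 299 of 299 in Gcr1(U) and 233 of 233 in Gcr1(S). Presence at both times was thus shared by all listed peaks and is no trait of these genes. The annotation gives them as an RNase P RNA, a snoRNA, a signal recognition particle RNA and an snRNA gene, as their names say.

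The groups were Gcr1(U) at 12 h, Gcr1(U) at 6 h, Gcr1(S) at 12 h and Gcr1(S) at 6 h, with 2 replicates each and 8 samples in all. Gcr1(U) is the protein of the unspliced GCR1 transcript and Gcr1(S) that of the spliced one. Each carried a tandem affinity purification (TAP) tag with the his3MX6 marker in the laboratory strain BY4741, and both strains also carried GCR2-5Flag with hphMX6, a tagged copy of the gene for Gcr2, the coactivator that works with Gcr1. There was 1 named strain per form, so form and strain cannot be told apart. Cells grew at 30 °C in YPD with 2% glucose. The labels put 12 h after the diauxic shift, when yeast turns from glucose to ethanol, and 6 h in the exponential phase. Crosslinked chromatin was recovered on IgG-sepharose. Neither an input nor a library from untagged cells entered the comparisons, so background that is independent of the tag was not measured.

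RNA polymerase III makes short untranslated RNAs, above all tRNAs. At a tRNA gene the factor TFIIIC binds an A box and a B box inside the transcribed sequence and places TFIIIB, which recruits the polymerase just upstream. The other genes vary this plan. RPR1 and SNR52 are made as precursors whose 5′ leader holds both boxes and is later removed, SCR1 has internal boxes and a TATA box upstream, and SNR6 has a TATA box upstream, an internal A box and a B box beyond its terminator. Gcr1 is known as an activator of glycolytic and ribosomal protein genes, which RNA polymerase II transcribes.

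Values are the authors' normalized tag counts, that is, sequenced tags in the peak window scaled to library size. Windows had nearly the same width within a list. The usual width at 12 h and 6 h was 168 and 182 bp in Gcr1(U), and 114 and 170 bp in Gcr1(S). Genes can therefore be compared within a list, and comparisons between lists also involve the width. In the same order 1 normalized tag stood for 1.42, 1.50, 0.582 and 1.07 sequenced tags, so Gcr1(S) at 12 h was the shallowest. Each list covers both replicates with no value for either, so no replicate error, SD or replicate test can be given. Ranges in brackets give 95% intervals of the counting error alone, exact Poisson for a level and exact binomial for a ratio.

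RPR1 encodes the RNA of RNase P, the enzyme that cuts the 5′ leader from precursor tRNAs. It lies on chromosome V from 117667 to 118035 on the minus strand (sacCer3 coordinates, YNCE0007C). Its peak had 585 tags (546 to 626) in Gcr1(U) at 12 h and 482 (448 to 519) at 6 h, and 324 (279 to 373) in Gcr1(S) at 12 h and 594.5 (549.7 to 643) at 6 h. The lowest value was that of Gcr1(S) at 12 h, and the intervals of Gcr1(U) at 12 h and Gcr1(S) at 6 h overlapped. By tags the peak ranked 18 and 41 of 299 in Gcr1(U) at 12 h and 6 h, and 76 and 31 of 233 in Gcr1(S) at these times.

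SNR52 encodes a box C/D small nucleolar RNA, a guide for methylation of ribosomal RNA. It lies on chromosome V from 431129 to 431220 on the minus strand (YNCE0020C). Its peak had 500.1 tags (464 to 538) in Gcr1(U) at 12 h and 356 (327 to 388) at 6 h, and 244 (206 to 288) in Gcr1(S) at 12 h and 595 (549.7 to 643) at 6 h. The 4 intervals did not overlap, and the order was Gcr1(S) at 6 h, Gcr1(U) at 12 h, Gcr1(U) at 6 h and Gcr1(S) at 12 h. The ranks were 30 and 79 of 299 in Gcr1(U) at 12 h and 6 h, and 123 and 30 of 233 in Gcr1(S).

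SCR1 encodes the RNA of the signal recognition particle, which brings ribosomes making secreted proteins to the endoplasmic reticulum. It lies on chromosome V from 441987 to 442508 on the plus strand (YNCE0024W). Its peak had 876 tags (828 to 926) in Gcr1(U) at 12 h and 943 (895 to 994) at 6 h, which placed it 10th and 18th of 299. No peak was listed in Gcr1(S), where the nearest one lay 7297 bp from the gene at 12 h and 7277 bp at 6 h. SCR1 had the most tags of the 4 genes in both lists that held it.

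SNR6 encodes U6, the spliceosomal RNA at the catalytic centre of splicing. It lies on chromosome XII from 366235 to 366346 on the plus strand (YNCL0006W). Its peak had 265.5 tags (224 to 309.9) in Gcr1(S) at 12 h and 588 (543 to 636) at 6 h, which placed it 102nd and 34th of 233. In Gcr1(U) no peak was listed, and the nearest one lay 7961 bp from the gene at 12 h and 8011 bp at 6 h. At 6 h in Gcr1(S) the intervals of RPR1, SNR52 and SNR6 overlapped throughout, with values from 588 to 595 tags.

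**Figure D1:**
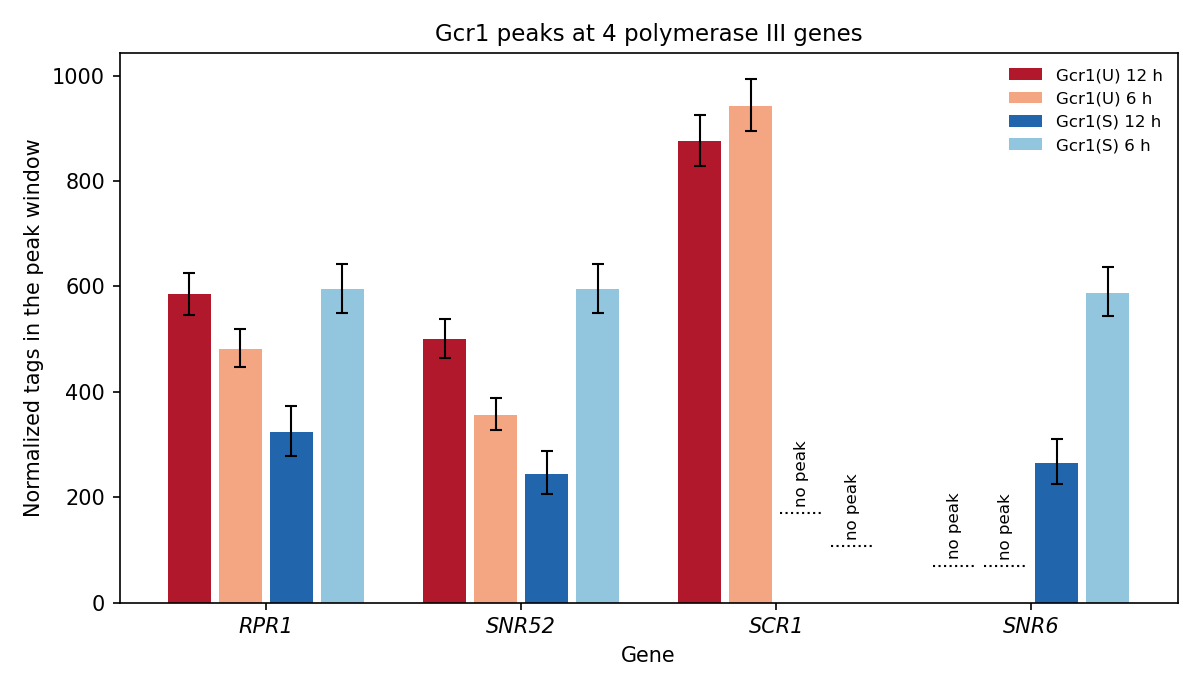
Normalized tags in the peak window (vertical axis) at each gene (horizontal axis) in the 4 lists, with 95% Poisson intervals for counting error as error bars. Dotted lines mark the lowest value listed where a list has no peak, and the SCR1 bars of 876 and 943 tags stand above all others.

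Apart from SCR1 at 12 h, whose window lay inside the gene, the peaks lay at or near the 5′ end. The place differed between the genes. At RPR1 the centre lay 12 bp upstream of the annotated 5′ end in Gcr1(U) at 12 h and 17 bp upstream at 6 h, and 42 and 44 bp upstream in Gcr1(S). The windows there took in between 16 and 75 bp of the gene. At SNR52 the centre lay 90 and 132 bp upstream in Gcr1(U) at 12 h and 6 h, and 130 and 89 bp upstream in Gcr1(S). No SNR52 window touched the annotated gene, and the gap was 6 and 41 bp in Gcr1(U) and 73 and 4 bp in Gcr1(S). The windows of these genes thus covered sequence just before the annotated RNA, on the side of the leader of their precursors. Where the boxes lie in these windows was not examined, since no sequence was read.

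At SNR6 the centre lay 23 bp downstream of the 5′ end at both 12 h and 6 h in Gcr1(S), with 81 bp of the 112 bp gene inside the narrower window. At SCR1 the centre lay 142 bp downstream of the 5′ end in Gcr1(U) at 12 h and 17 bp downstream at 6 h. The window thus lay wholly inside the gene at 12 h (V 442045 to 442213) and across its start at 6 h (V 441913 to 442095), and the windows shared 51 bp. This distance of 125 bp was the 4th longest among the 299 matched peaks of Gcr1(U), whose median was 14 bp. For SNR6 the centre at 12 h and that at 6 h were the same, and for RPR1 they lay 5 bp apart in Gcr1(U) and 2 bp apart in Gcr1(S). SNR52 lay between, with 42 and 41 bp.

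**Figure D2:**
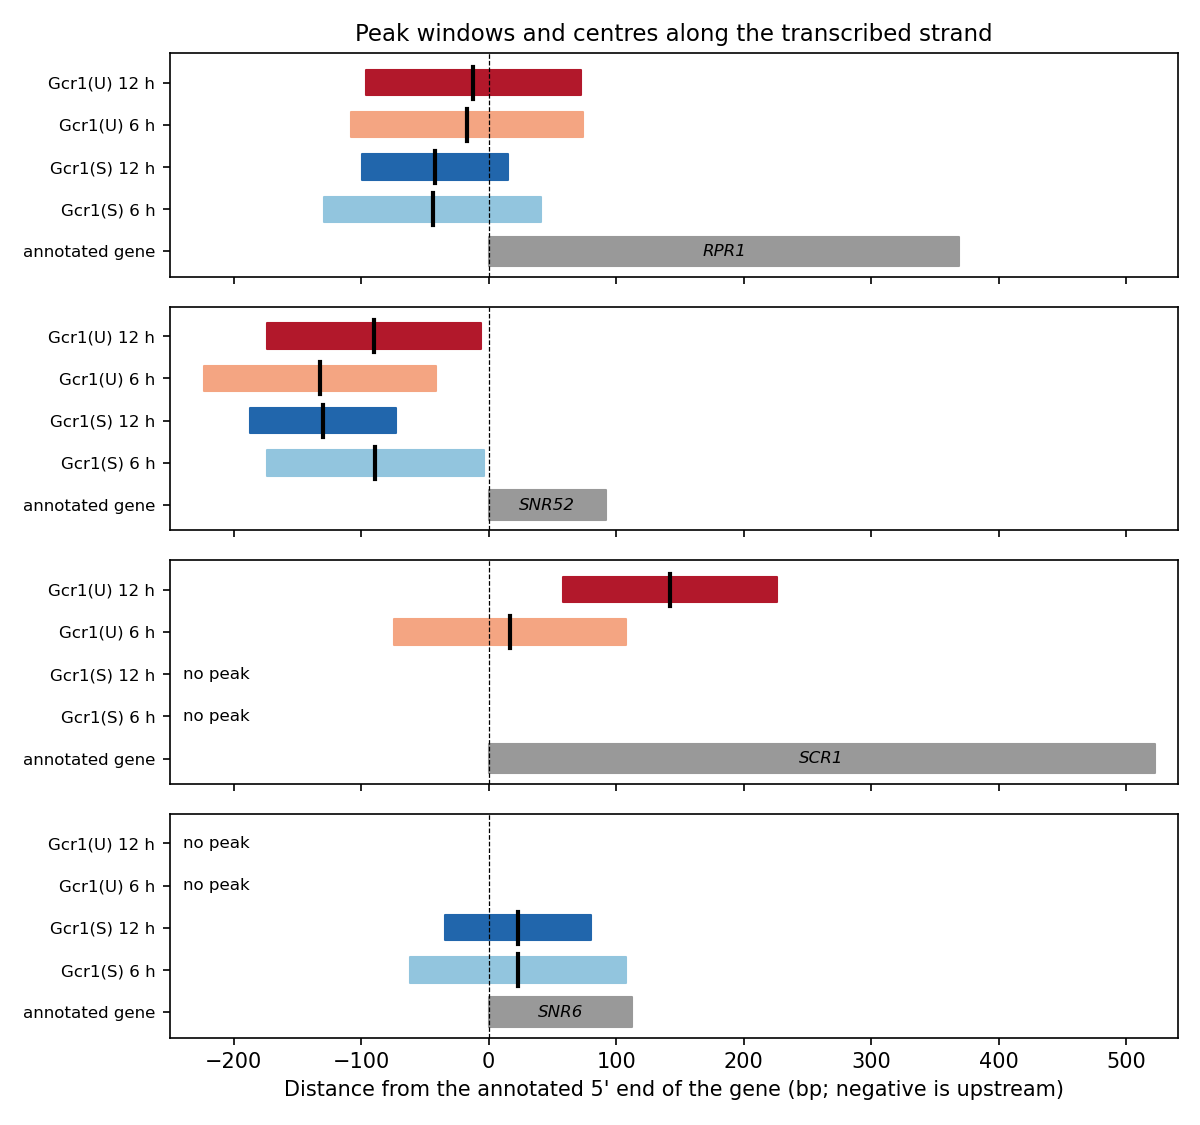
Peak windows (coloured bars) and centres (black ticks) along the transcribed strand, with distance from the annotated 5′ end in bp on the horizontal axis and the 4 lists and the annotated gene down each panel. SNR52 windows end before the gene, RPR1 windows cross its start, and the SCR1 centre is at 142 bp at 12 h and 17 bp at 6 h.

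Set against tRNA genes, RPR1 and SNR52 had centres further upstream. At 98 tRNA gene peaks of Gcr1(U) the median centre lay 36 bp downstream of the 5′ end of the tRNA at 12 h and 51 bp at 6 h, and at 118 of Gcr1(S) it lay 45 and 23.5 bp downstream. SNR52 was further upstream than every tRNA gene peak in each of the 4 lists. RPR1 was so in both lists of Gcr1(S), and 3 of 98 tRNA gene peaks lay further upstream in Gcr1(U) at each time. SNR6 was inside the tRNA range, with 21 of 118 tRNA gene peaks further upstream at 12 h and 55 of 118 at 6 h. SCR1 lay beyond all 98 on the downstream side at 12 h and had 16 of 98 further upstream at 6 h. Mature tRNA genes hold their boxes inside the annotated gene, so the distances compare annotated ends and not distances from a box.

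**Figure D3:**
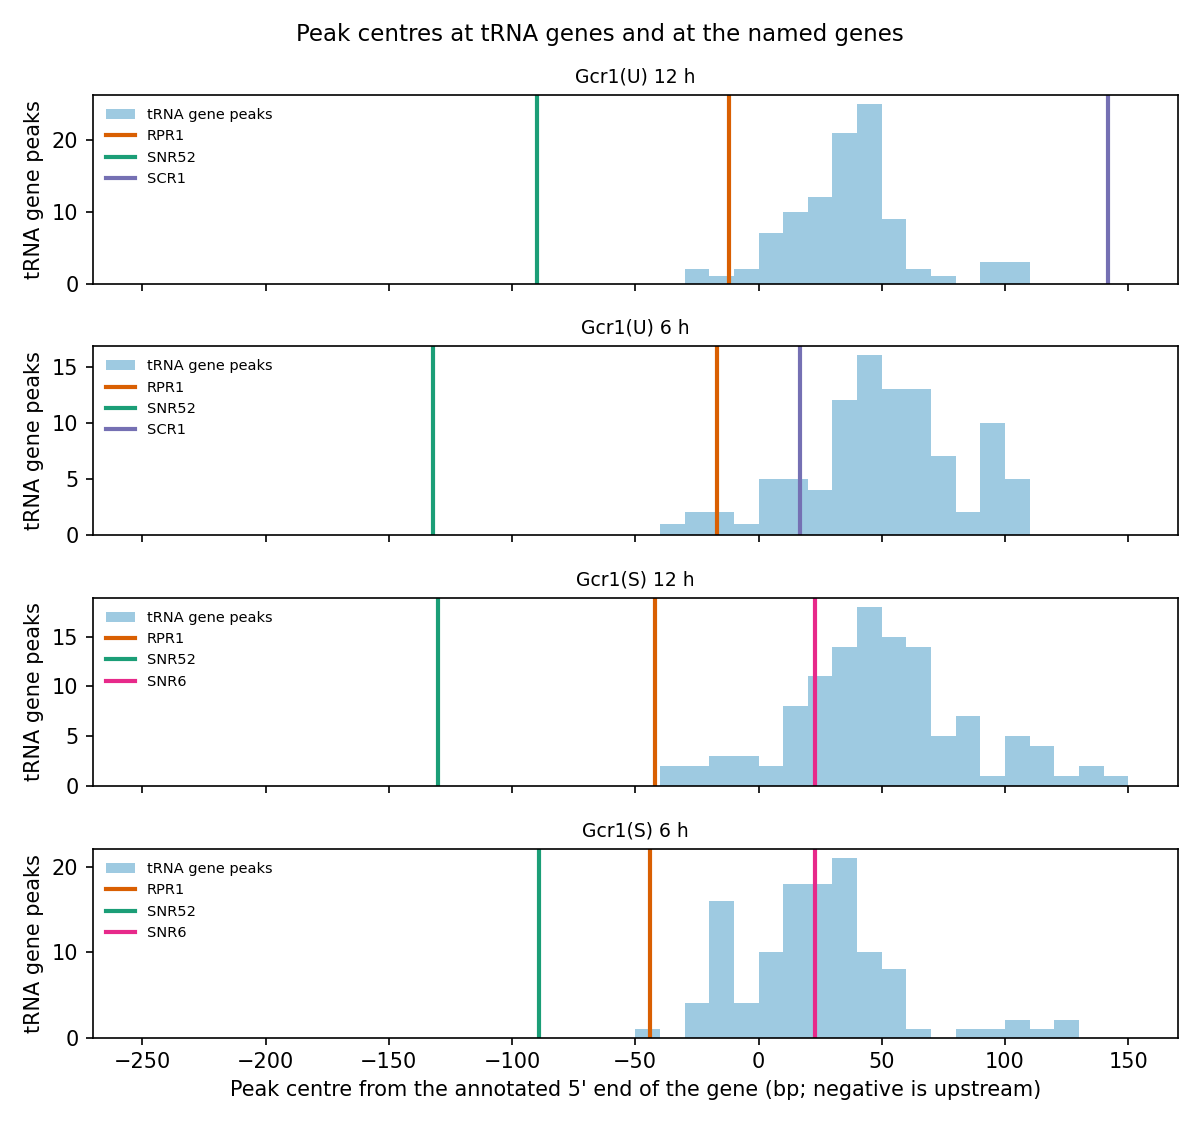
Number of tRNA gene peaks (vertical axis) by the distance of the peak centre from the annotated 5′ end in bp (horizontal axis, negative is upstream), in 1 panel per list, with coloured lines at the centres of the named genes. The SNR52 line stands left of all tRNA gene peaks in each panel.

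The authors' fold over local background, the caller's ratio of a peak to its surroundings, lay between 2.04 and 3.47 at these genes. RPR1 had a fold of 2.63 in Gcr1(U) at 12 h and 2.52 at 6 h, and 2.42 and 2.39 in Gcr1(S). SNR52 had 2.86 and 2.44 in Gcr1(U), and 2.63 and 3.22 in Gcr1(S). SNR6, listed in Gcr1(S) alone, had 2.61 and 3.47. The medians over tRNA gene peaks in the same lists were 2.77, 2.24, 2.27 and 2.915, so RPR1 was under the tRNA median in Gcr1(U) at 12 h and Gcr1(S) at 6 h.

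SCR1 was the extreme case, with 2.04 in Gcr1(U) at 12 h and 3.0 at 6 h. At 12 h it ranked 10th of 299 by tags and 297th by fold, next to the lowest fold listed, 2.01. All 98 tRNA gene peaks had a higher fold there, while 92 of 98 had a lower one at 6 h. The ratio of its folds, 0.680 for 12 h over 6 h, was the 6th lowest of the 299 matched peaks. The focus ratio, the authors' fraction of tags that lie on the proper side of the peak centre for their strand, was 0.566 at 12 h (294th of 299) and 0.696 at 6 h (107th). At RPR1, SNR52 and SNR6 it lay between 0.632 and 0.707. In Gcr1(U) RPR1 and SNR52 also ranked in the lower part at 12 h, 225th and 226th of 299, and were 139th and 188th at 6 h. At 12 h the SCR1 peak therefore had nearly as many tags as at 6 h, but a centre inside the gene, the lower fold and the lower focus ratio.

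**Figure D4:**
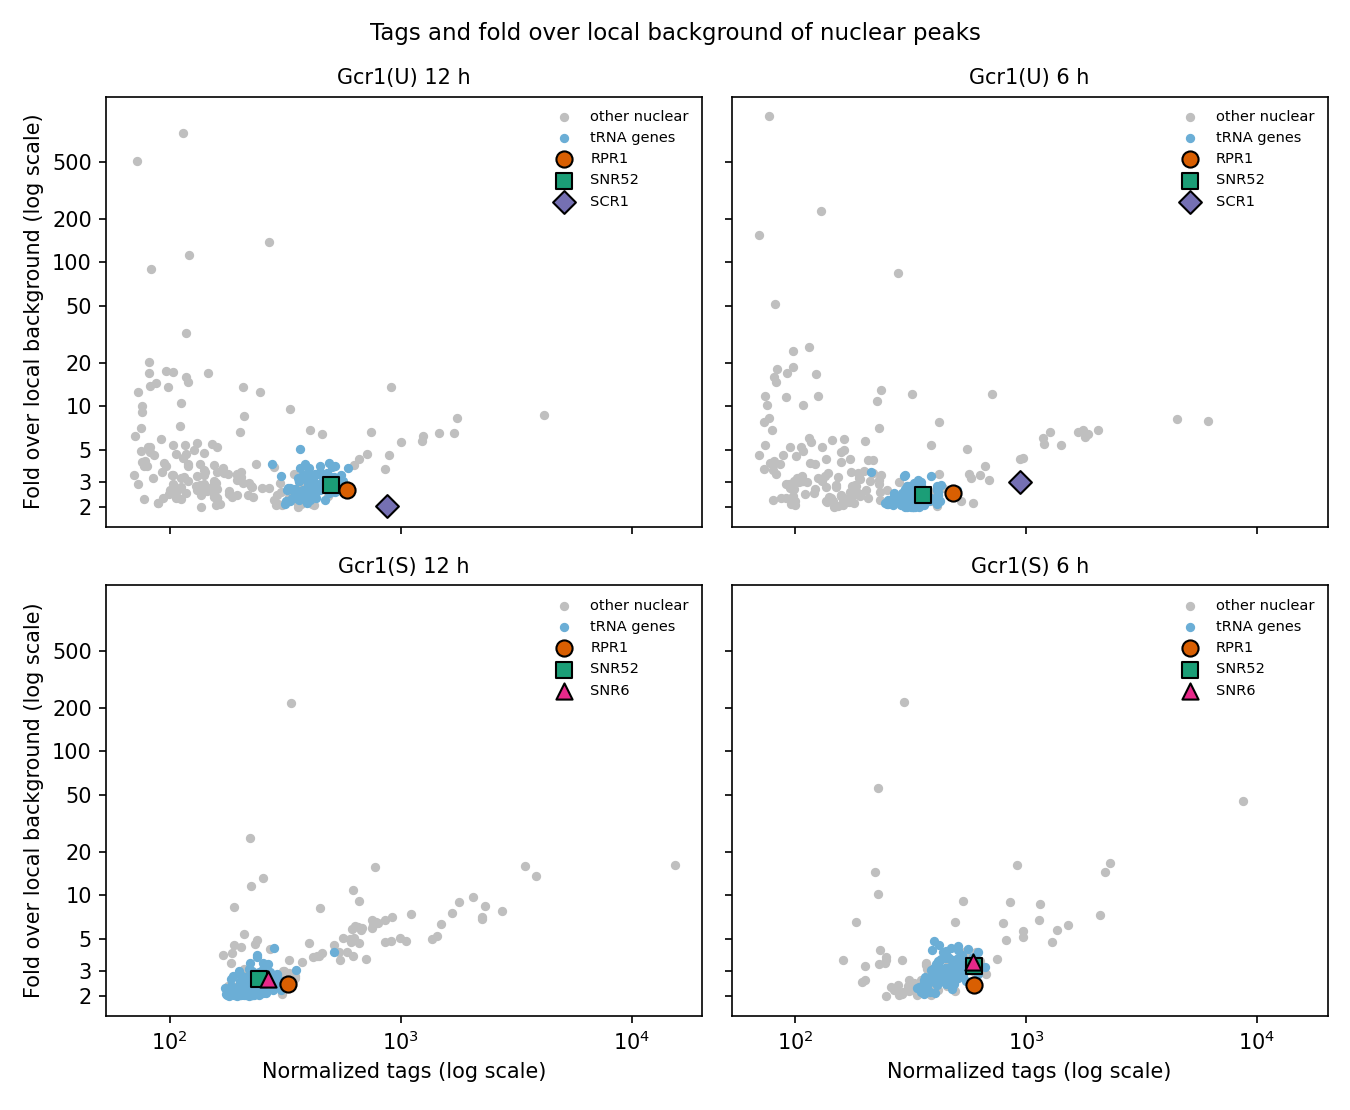
Fold over local background (vertical, log scale) against normalized tags (horizontal, log scale) for each nuclear peak, in 1 panel per list, with tRNA gene peaks in blue and the named genes as large symbols. RPR1, SNR52 and SNR6 sit in or at the upper tag end of the tRNA cloud, and SCR1 at 12 h has 876 tags at a fold of 2.04.

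By tags the peaks of these genes were at the upper end of the tRNA gene peaks. In Gcr1(U) the median tRNA gene peak had 405 tags at 12 h and 324 at 6 h, and in Gcr1(S) 220.0 and 449.7. RPR1 was exceeded by 1 of 98 tRNA gene peaks in Gcr1(U) at each time, and by 2 of 118 at 12 h and 6 of 118 at 6 h in Gcr1(S). SNR52 was exceeded by 10 and 22 of 98 in Gcr1(U), and by 29 and 6 of 118 in Gcr1(S). SNR6 was exceeded by 14 and 6 of 118, and SCR1 by 0 of 98 at either time.

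The comparison of times asks how the signal at these genes differed after the diauxic shift. In Gcr1(U) RPR1 and SNR52 had more tags at 12 h, and the SCR1 interval reached 1. The ratio of 12 h over 6 h was 1.21 (1.10 to 1.34) at RPR1, 1.40 (1.25 to 1.57) at SNR52 and 0.929 (0.860 to 1.00) at SCR1. None of the 3 passed 1.5-fold in either direction (per bp of window SNR52 did, with 1.52), where 2.68% of all 299 matched peaks were higher by that fold and 12.0% lower. The median over all matched peaks was 1.03 and over tRNA gene peaks 1.26.

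SNR52 had the 19th highest ratio of the 299 matched peaks of Gcr1(U). RPR1 and SNR52 fell inside the tRNA range, with 33 and 86 of 98 tRNA gene peaks below them. Of 171 other nuclear peaks, 157 lay below RPR1 and 165 below SNR52. SCR1 did not share this: all 98 tRNA gene peaks had a higher ratio, and among the other nuclear peaks 80 of 171 lay below it. The SCR1 ratio compares windows that shared only 51 bp, and per bp of window it was 1.01 (0.932 to 1.09). Relative to the median of all matched peaks it was 0.906 (0.839 to 0.978), which excludes 1, as does the interval with a step of 1 tag (0.880 to 0.981).

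In Gcr1(S) all 3 genes with a peak had fewer tags at 12 h. The ratio of 12 h over 6 h was 0.545 (0.459 to 0.640) at RPR1, 0.410 (0.340 to 0.493) at SNR52 and 0.452 (0.375 to 0.537) at SNR6. All 3 were lower by over 1.5-fold, but so were 52.8% of the 233 matched peaks (14.6% were higher by that fold), and the median over all of them was 0.595. Relative to that median the ratios were 0.916, 0.689 and 0.759, and the interval of RPR1 then included 1 (0.772 to 1.08). The window was narrower at 12 h, and per bp the ratios were 0.812, 0.611 and 0.673, so only SNR52 was still lower by over 1.5-fold. With the authors' fold over local background RPR1 had 1.01, SNR52 0.817 and SNR6 0.752.

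SNR52 had the 4th lowest ratio of the 233 peaks of Gcr1(S), and SNR6 the 29th lowest. The tRNA gene peaks of this form had a median of 0.485, with 3 of 118 below SNR52, 27 below SNR6 and 96 below RPR1. The other nuclear peaks had a median of 1.23, and of these 86 peaks none lay below SNR52 or SNR6 and 1 lay below RPR1.

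**Figure D5:**
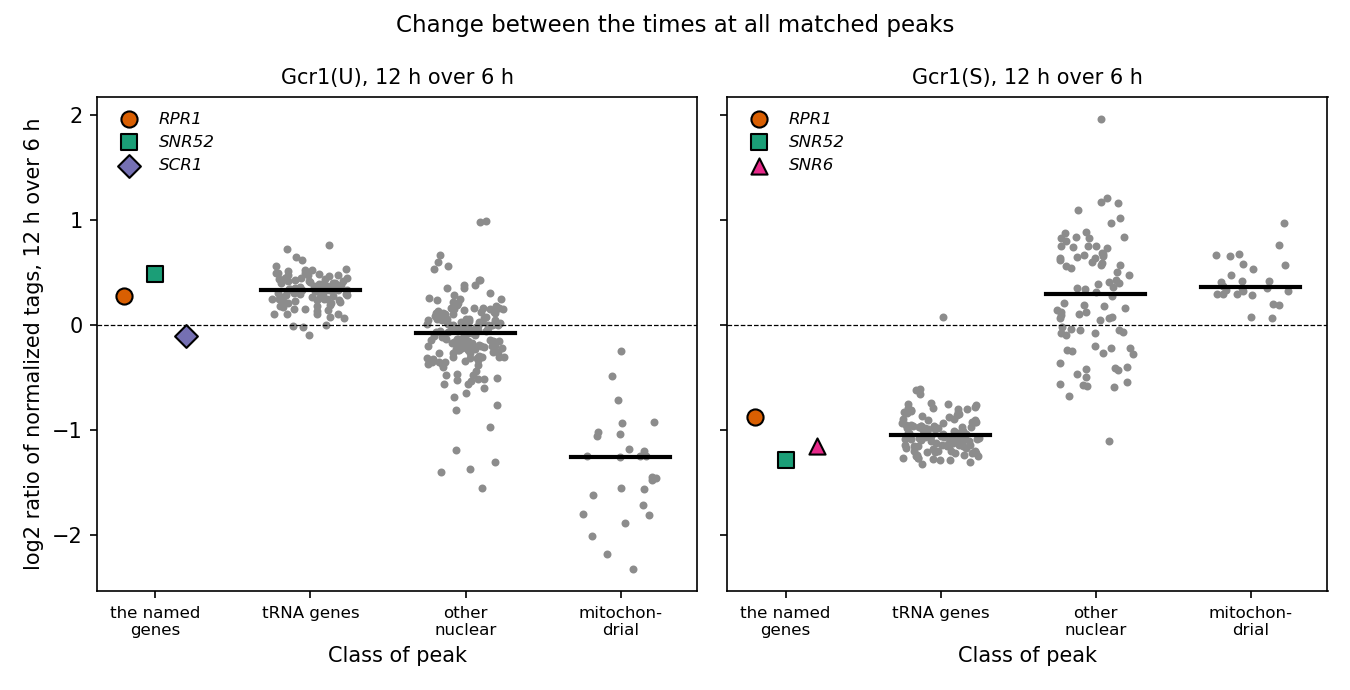
The log2 ratio of normalized tags, 12 h over 6 h (vertical axis), by class of peak (horizontal axis) for Gcr1(U) on the left and Gcr1(S) on the right, with grey points for single peaks and black lines at class medians. RPR1 and SNR52 lie among the tRNA gene peaks in both panels, SNR6 does so in Gcr1(S), and SCR1 lies just below all of them in Gcr1(U).

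The comparison of forms was possible at RPR1 and SNR52, and its direction differed between the times. At 12 h Gcr1(U) had more tags than Gcr1(S), with a ratio of 1.81 (1.54 to 2.13) at RPR1 and 2.05 (1.71 to 2.47) at SNR52. Both were higher by over 1.5-fold, as were 50.3% of the 163 shared peaks, with 30.1% lower. All 55 other nuclear peaks had a lower ratio than either gene, while the tRNA gene peaks had a median of 1.83, with 35 of 81 below RPR1 and 67 below SNR52. Relative to the median of all shared peaks, 1.52, the ratios were 1.19 and 1.35, and with fold over local background both were 1.09. The window was narrower in Gcr1(S), and per bp the ratios were 1.23 and 1.39, so neither passed 1.5-fold. The per bp median over all shared peaks was 1.03.

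At 6 h Gcr1(U) had fewer tags than Gcr1(S), with a ratio of 0.811 (0.728 to 0.903) at RPR1 and 0.598 (0.533 to 0.673) at SNR52. SNR52 was lower by over 1.5-fold, as were 12.3% of the 162 shared peaks (16.0% were higher), and had the 3rd lowest ratio of all. RPR1 was not past that fold, and its direction rested on the scaling: relative to the median of all shared peaks, 0.781, its ratio was 1.04, and with fold over local background 1.05. SNR52 kept its direction in both, with 0.766 and 0.758. Among tRNA gene peaks, whose median was 0.709, 72 of 81 lay below RPR1 and 2 below SNR52, so these genes stood at opposite ends of the tRNA range.

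For RPR1 the ratio of 12 h over 6 h in Gcr1(U) was 2.23 times (1.84 to 2.72) that in Gcr1(S), and for SNR52 it was 3.43 times (2.75 to 4.27), by exact conditional intervals on the 4 tag counts. The median over the 162 places listed in all 4 lists was 1.78, and over the 81 tRNA genes among them 2.62. SNR52 ranked 6th of the 162 and RPR1 65th. Per bp of window the values were 1.62 (1.34 to 1.97) and 2.49 (2.00 to 3.10), and with fold over local background 1.03 and 1.44.

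SCR1 and SNR6 could not be compared between forms, since each had a peak in 1 form. Such peaks were common: 45.5% of Gcr1(U) peaks at 12 h and 45.8% at 6 h had no Gcr1(S) peak, and 30.0% and 30.5% of Gcr1(S) peaks had no Gcr1(U) peak. In Gcr1(U) they were mostly weak, with a median of 131 tags at 12 h and 137 at 6 h. SCR1 had the most tags of all 136 such peaks at 12 h and of all 137 at 6 h, and the next had 472 and 414. The 9 stronger peaks of Gcr1(U) at 12 h and the 17 at 6 h all had a counterpart in Gcr1(S). The lowest value listed in Gcr1(S) was 169.3 tags at 12 h and 107.5 at 6 h, and its lowest fold over local background was 2.00 and 2.01. The fold of SCR1 in Gcr1(U) at 12 h, 2.04, lay next to that limit, and its fold at 6 h, 3.0, did not. What the Gcr1(S) libraries held at SCR1 is not in the list. Lower occupancy and a signal that failed the caller's criteria therefore cannot be told apart. A peak called in Gcr1(S) at 1 time alone might also be absent, since all 233 listed at 12 h had a partner at 6 h. The shares of peaks in 1 form carry the same limit.

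SNR6 had the most tags of the 71 peaks of Gcr1(S) alone at 6 h, ahead of 521 for the next, and all 33 stronger peaks had a counterpart in Gcr1(U). At 12 h it ranked 31st of 70. Of the peaks of Gcr1(S) alone 37 were at tRNA genes, against 81 tRNA genes shared by both forms. The lowest value listed in Gcr1(U) was 69.8 tags at 12 h and 69.6 at 6 h, with lowest folds of 2.01 and 2.00. A peak at SNR6 called in Gcr1(U) at 1 time alone might likewise be absent, since all 299 listed at 12 h had a partner at 6 h.

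The places whose profiles over the 4 lists came closest to those of RPR1 and SNR52 were tRNA genes. Likeness was the Euclidean distance of log2 tags over the 4 lists, each profile centred on its own mean, among the 162 places in all 4 lists, of which 81 were tRNA genes. The 5 nearest to RPR1 were the tRNA genes YNCK0007W, YNCE0027C, YNCD0013C, YNCM0035C and YNCG0018C, at distances from 0.058 to 0.082, against a median of 0.371 over all places. The nearest, YNCK0007W, had 378.5 and 302 tags in Gcr1(U) at 12 h and 6 h, and 202 and 389 in Gcr1(S). The 5 nearest to SNR52 were YNCK0012C, SUP61, YNCO0005W, YNCE0009C and YNCM0018C, also tRNA genes, at distances from 0.052 to 0.111, against a median of 0.519. SUP61, a serine tRNA gene, had 557 and 416 tags in Gcr1(U) and 286 and 662 in Gcr1(S).

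Presence at these genes can be read beside other RNA genes. Each form had a peak at 3 of the 4, against 35.6% of 275 nuclear tRNA genes in Gcr1(U) and 42.9% in Gcr1(S), and 6.03% and 5.75% of all annotated nuclear genes. The 4 genes were chosen with earlier results of these data known, so 3 of 4 beside these shares is no test. Of 80 snRNA and snoRNA genes made by RNA polymerase II, 0 had a peak within 500 bp in Gcr1(U) and 1 in Gcr1(S), SNR33, whose peak was that of a tRNA gene. Among other loci of RNA polymerase III (6 copies of the 5S gene, ZOD1 and RNA170), the 5S copy RDN5-6 alone had a peak, and only in Gcr1(U), with 178 tags at 12 h and 186.5 at 6 h. It overlapped the gene at 12 h and lay 94 bp from it at 6 h. Reads from repeated 5S copies may be split among them, so this value is uncertain.

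Genes for the machinery that makes or binds these RNAs had few peaks, but lists of this size cannot be set apart from the share over all nuclear genes, 6.03% in Gcr1(U) and 5.75% in Gcr1(S). None of the 23 genes of the RNA polymerase III machinery (polymerase subunits, TFIIIB, TFIIIC and the repressor gene MAF1) had a peak within 500 bp in any list. The same held for the 12 of RNase P and RNase MRP, the 10 of the U6 particle and the 4 of the box C/D particle. Of 8 genes of the signal recognition particle and its receptor, YKL154W, which encodes the beta subunit of the receptor, had a peak in Gcr1(S), and it was again that of a tRNA gene.

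Few starts of protein-coding genes lay close to these peaks. The centre at SNR52 lay 861 and 903 bp upstream of the start codon of PMD1 in Gcr1(U), and 901 and 860 bp upstream in Gcr1(S), and no protein-coding gene was within 500 bp of the window. The RPR1 peak lay between the 3′ ends of TIM9 and PXP1, which face each other. The SNR6 peak lay 324 bp or more from the 3′ end of YLR108C. SCR1 alone had a start codon near, that of YER137C, 310 bp from the centre at 12 h and 185 bp at 6 h, and no tRNA gene lay within 500 bp of any of the 12 peaks.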

How the data were processed

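Per the labels, 8 ChIP libraries (15 cycles of PCR, 1 end read for 50 cycles) came from cells fixed with 1% formaldehyde for 25 min. The submitters' processing notes name sacCer3, HOMER, bedtools, Picard 2.92, BWA 0.7.15, FastQC 0.10.1 and bcl2fastq 1.8.2, without roles. The data are 1 list per group with the columns of HOMER's findPeaks, per the file headers. From each list the normalized tag count (the deposited signal), the fold over local background (a ratio), the focus ratio (a fraction) and the findPeaks score were used as the authors deposited them. The deposited p-value against local background was not used in any comparison. No header or label states the scale of the normalized tags. Tags per unit were read from the even step of the values, taken as 0.5 tags, and 100% of values in 3 lists and 99.6% in Gcr1(S) at 12 h lay within 0.05 units of a step (11.6% to 30.0% by chance).

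Genes came from the RefSeq table of R64, the assembly that sacCer3 represents, and strands from the systematic names. Peaks were matched between lists by an overlap of at least 1 bp. A tRNA gene peak lay within 500 bp of a nuclear tRNA gene, and other nuclear peaks are all remaining ones off the mitochondrial genome. Intervals cover counting error only, since the lists hold no value per replicate, and rest on that step. Tags amplified by PCR were not tied to single molecules, so the intervals may be too narrow. Called genes or peaks are those past 1.5-fold. Python 3.11.15, pandas 2.3.3 and scipy 1.17.1 were used, and the step and interval were tested on simulated data. Alternatives covered distance, score, scaling, window width, tag step and overlap. All 4 genes, their neighbours, the 5 nearest profiles and gene list members with a peak are named. The genes and lists were chosen with earlier results of these data known.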

Additional observations from a re-analysis of the deposited data

Results flagged for a closer look

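RPR1 and SNR52 were singled out because the difference between the times went opposite ways in the forms, with more tags at 12 h in Gcr1(U) and fewer in Gcr1(S). The ratio of 12 h over 6 h in Gcr1(U) divided by that in Gcr1(S) was 2.23 at RPR1 and 3.43 at SNR52. Counting intervals excluded 1, but the difference was not tested over replicates, which have no values in the lists. The tRNA gene peaks had a median of 2.62 for the same quantity, and Gcr1(S) at 12 h had the narrowest window (114 bp) and the fewest tags per unit (0.582). Per bp of window, in alternatives chosen after seeing the data, the values were 1.62 at RPR1 and 2.49 at SNR52, and the forms still went opposite ways. Centring on tRNA gene peaks gave 0.857 (0.708 to 1.05) and 1.32 (1.06 to 1.64), and fold over local background 1.03 and 1.44. Centring on all shared peaks gave 1.29 (1.07 to 1.58) at RPR1 and 1.99 (1.60 to 2.48) at SNR52. At RPR1 the directions of the forms held per bp and with this last centring, but not in the settings that follow. With this centring RPR1 had 1.18 in Gcr1(U) and 0.916 in Gcr1(S), where the interval included 1 (0.772 to 1.08). Fold over local background was higher at 12 h in both forms (1.04 in Gcr1(U) and 1.01 in Gcr1(S)). Centring on tRNA gene peaks exchanged the directions of the forms, with 0.963 in Gcr1(U) and 1.12 in Gcr1(S), and both intervals then included 1. The part of depth was not tested.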

How the results depend on the processing

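Presence kept the count of 3 genes per list within 1000 bp, and became 2 in each list where the peak had to overlap the gene, since SNR52 dropped out, and 2 in Gcr1(S) at 12 h in the upper 50% by score. Centring on all shared peaks gave 1.04 (0.932 to 1.16) for RPR1 in Gcr1(U) over Gcr1(S) at 6 h. This was a turn of direction, with 1 in the interval. The same centring gave 0.766 for SNR52 there, and 1.19 and 1.35 for RPR1 and SNR52 at 12 h. In 12 h over 6 h of Gcr1(S) it gave 0.916, 0.689 and 0.759 for RPR1, SNR52 and SNR6. Centring on tRNA gene peaks turned RPR1 in all 4 comparisons, but the interval excluded 1 only between forms at 6 h. Over time RPR1 had 0.963 (0.870 to 1.07) in Gcr1(U) and 1.12 (0.947 to 1.32) in Gcr1(S). Between forms it had 0.988 (0.844 to 1.17) at 12 h and 1.14 (1.03 to 1.27) at 6 h. This centring gave 1.11, 0.845, 1.12 and 0.844 for SNR52 in the same order, 0.737 for SCR1 and 0.931 for SNR6. Tags per bp gave 1.01 for SCR1, 0.812, 0.611 and 0.673 for RPR1, SNR52 and SNR6 over time in Gcr1(S), and 1.23 and 1.39 for RPR1 and SNR52 between forms at 12 h. Fold over local background turned RPR1 to 1.01 over time in Gcr1(S) and to 1.05 between forms at 6 h. It gave 1.04, 1.17 and 0.680 for RPR1, SNR52 and SCR1 over time in Gcr1(U), 0.817 and 0.752 for SNR52 and SNR6 in Gcr1(S), and 1.09 for both genes at 12 h and 0.758 for SNR52 at 6 h between forms. The ratio of 12 h over 6 h in Gcr1(U) over that in Gcr1(S) turned at RPR1 when centred on tRNA gene peaks, to 0.857 (0.708 to 1.05). SNR52 kept its direction in each, but centred on tRNA gene peaks its interval included 1 over time in Gcr1(U) (0.994 to 1.25) and Gcr1(S) (0.7003 to 1.02) and between forms at 12 h (0.935 to 1.35). The per bp value of 1.52 took it past 1.5-fold over time in Gcr1(U). The cause of these shifts was not tested. An overlap of 50% changed no ratio, and a step of 1 tag narrowed the intervals, which for SCR1 then excluded 1 (0.880 to 0.981). Centres also have values from the gene end (-88 bp for SNR6) in the same lists. No paired analysis was possible because the lists carry no value per replicate, and for the same reason no replicate could be left out. Depth limits Gcr1(S) at 12 h most.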
